A study of Homo sapiens with 3 samples.

Results

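The genes described here encode enzymes that make or interconvert the non-essential amino acids asparagine, arginine, proline, alanine, aspartate and glutamine. They were chosen by name from the platform annotation, and a probe set (a group of short probes that reads one transcript) belonged to them where its symbol was exactly ASNS, ASS1, ASL, PRODH, PYCR1, ALDH18A1, GPT2, GOT1 or GLUL. This gave 13 of the 54675 probe sets on the array, which cover 8 of the 9 listed genes and 8 of the 19775 genes that the annotation names singly. GPT2, the mitochondrial alanine aminotransferase, is named by no probe set in the annotation used and was not analysed here. Of the 13 probe sets, 11 passed a filter on dim signals, at least 1 for each of the 8 genes.

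The RNA came from undifferentiated khES3 cells, a human embryonic stem cell line in established use. The cells of all 3 groups were kept for 5 hours in one of 3 media: a complete medium, a medium lacking leucine, or a medium lacking lysine. Human cells cannot make leucine or lysine and must take them up. Most of the enzymes described here build amino acids from precursors such as glutamate, aspartate and, for arginine, citrulline. Each medium had 1 Affymetrix array, so no difference below has a replicate check or a p-value. Across the 3 arrays the median signal ran from 82.8 to 98.2, and the 9 stem cell markers with a usable probe set, of 10 listed, were above the floor on every array, NANOG at 15731 to 17274 and SOX2 at 18755 to 21643. The floor was the 40th percentile of each array, so most probe sets lie above it, whatever they read. A count of markers above it therefore does not by itself show that a cell type was present. Of 8 fibroblast or feeder cell markers, 7, 5 and 6 were above the floor in complete, leucine-free and lysine-free medium. The summed signals of these 8 markers were 28183, 25598 and 29595. COL1A1 (11552, 13187 and 18609) and THY1 (12735, 8348 and 7503) carried most of that sum and moved in opposite directions. COL1A2 gave 3312, 3590 and 2868, and POSTN 281.7, 366.3 and 318.9. LUM stayed between 59.8 and 69.4, near the floor of 54.6 to 62.4. LUM, COL3A1, DCN and PDGFRB each fell below the floor on 1 or more arrays. The part of fibroblast or feeder cells in the results was not tested. In RNA from a whole culture, a smaller share of expressing cells and less RNA per cell cannot be told apart.

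When an essential amino acid runs short, uncharged tRNA activates the kinase GCN2, which phosphorylates the initiation factor eIF2. General translation then slows while the transcription factor ATF4 is translated more, and ATF4 binds C/EBP-ATF response elements in its target genes. The element of the asparagine synthetase gene is among the best studied of these. Several enzymes of proline and aspartate metabolism are also known to respond to ATF4 in some cells.

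Promoter sequences from RefSeq (GRCh38.p14) were available for 6 of the genes, in 9 windows that each run from 250 bases before to 50 bases after an annotated transcript start. The windows were searched on both strands for TGATGNAA, the core of the C/EBP-ATF response element, where N is any base. Of the 9 windows 2 held it, 1 for ASNS and 1 for GOT1, against 3.62% of 35116 windows of all genes. The part before the start is shown for these 2, 5′ to 3′ on the gene's strand, because they are the only windows of the set with a match. The match is in capitals.

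ASNS, chr7:97872409-97872658, minus strand: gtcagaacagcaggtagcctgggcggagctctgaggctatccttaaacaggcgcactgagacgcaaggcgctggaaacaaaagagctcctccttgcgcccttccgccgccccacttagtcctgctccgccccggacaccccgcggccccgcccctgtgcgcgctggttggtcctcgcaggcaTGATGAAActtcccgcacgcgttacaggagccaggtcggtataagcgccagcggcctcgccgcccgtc

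GOT1, chr10:99430625-99430874, minus strand: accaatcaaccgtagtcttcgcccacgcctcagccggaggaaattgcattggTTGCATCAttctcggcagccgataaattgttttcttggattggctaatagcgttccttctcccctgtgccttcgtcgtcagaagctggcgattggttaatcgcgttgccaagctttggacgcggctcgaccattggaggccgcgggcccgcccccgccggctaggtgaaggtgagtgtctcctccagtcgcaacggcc

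In the ASNS window the match TGATGAAA lay 68 to 61 bases before the start, in the orientation of the gene. In the GOT1 window the match TTGCATCA, which reads as the motif on the opposite strand, lay farther away, 198 to 191 bases before the start. The other ASNS window, both windows of ASS1 and of GLUL, and the single windows of ASL and ALDH18A1 held no match to these letters. PRODH, PYCR1 and GPT2 have no window here. A match is a string of letters in a reference sequence, and binding was not measured.

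The enzyme genes ASNS, ASS1 and PRODH had signals more than 2-fold higher on both deprived arrays than in complete medium. GOT1 was 1.51-fold higher without leucine. By their brightest probe sets, PYCR1, ASL, ALDH18A1 and GLUL differed from complete medium by less than the SD over 5981 genes described below, between -0.38 and 0.55. Differences are log2 ratios of signal (a value of 1 means 2-fold), taken after values below each array's 40th percentile had been raised to it (the floor). The error available is how far probe sets that read 1 gene disagree on its difference, given as an SD pooled across 5981 genes: 0.49 for leucine removal, 0.57 for lysine removal and 0.59 between the deprived arrays. Over 3864 of these genes, at or above the median level, the SD was smaller, at 0.40, 0.48 and 0.49. PYCR1 after lysine removal (0.55) was past that smaller SD. Below, the SD between probe sets is the one over 5981 genes unless stated. Both leave out the spread between cultures.

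**Figure D1:**
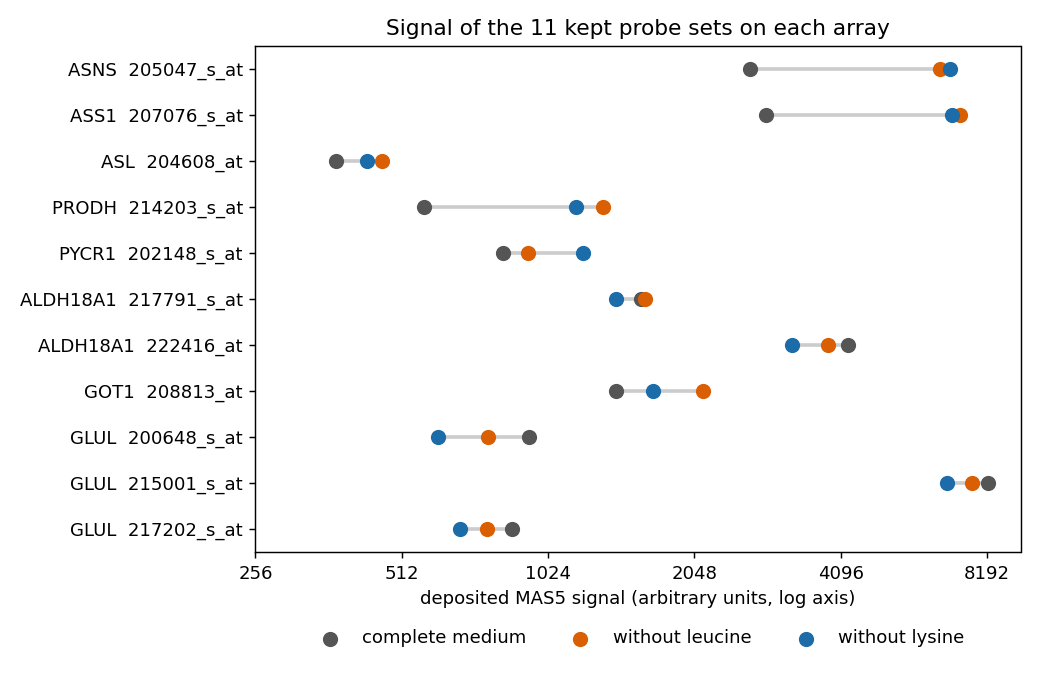
Deposited signal (log axis, arbitrary units) of the 11 probe sets that passed the filter, 1 point per array and 1 row per probe set, with a grey line from the lowest to the highest array. For ASNS, ASS1 and PRODH both deprived arrays lie far to the right of complete medium, while the 3 GLUL probe sets run the other way, lowest without lysine. Distances within a row can be compared, and positions of different rows cannot.

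ASNS makes asparagine from aspartate, with glutamine as the nitrogen donor. Its main probe set gave 2672 in complete medium, 6551 without leucine and 6875 without lysine. Both deprived arrays were high and lay close together, and complete medium was low. The signal was 2.45-fold higher after leucine removal (1.29) and 2.57-fold higher after lysine removal (1.36), while the deprived arrays differed by -0.07, leucine minus lysine. A second ASNS probe set was dim: it gave 7.04, 78.0 and 3.75, above the floor only without leucine, where it was at least 1.43-fold higher than in complete medium. This dim probe set did not pass the filter and gave no measurable level on the lysine-deprived array. The higher ASNS signal after either removal therefore rests on 1 probe set, the main one. That probe set is of the type (_s_at) that may read several transcripts, and RefSeq names 5 ASNS pseudogenes, whose part in the signal was not tested.

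The genes with differences most like those of ASNS were found by the Euclidean distance of the pair of differences (leucine removal, lysine removal) among 6480 genes at or above the median level. The 5 nearest were CEBPG (1.27 and 1.33), BLTP3A (1.29 and 1.43), MTHFD2 (1.35 and 1.41), VLDLR (1.36 and 1.39) and PCK2 (1.37 and 1.39). CEBPG encodes a C/EBP-family transcription factor, MTHFD2 a mitochondrial folate enzyme and PCK2 the mitochondrial phosphoenolpyruvate carboxykinase. Their distances from ASNS were 0.04 to 0.08, below the error between probe sets, so their order has no meaning. Likeness here rests on 3 arrays, and 1 of the 2 CEBPG promoter windows held the motif above, while the single windows of the other 4 genes did not.

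In arginine synthesis, ASS1 joins citrulline to aspartate and ASL splits the product into arginine and fumarate. The ASS1 probe set gave 2880 in complete medium, 7221 without leucine and 6949 without lysine. The deprived arrays again lay together, 2.51-fold (1.33) and 2.41-fold (1.27) above complete medium and 0.06 apart. ASL, the next enzyme of the path, gave 375.1, 466.0 and 434.0. It was highest without leucine, but its differences of 0.31 and 0.21 were smaller than the SD between probe sets. ASS1 exceeded that SD after either removal, and whether the 2 genes truly differ in response was not tested. Each gene was read by 1 probe set. RefSeq names 14 ASS1 pseudogenes, and the ASS1 probe set is also of the _s_at type; the part of such copies was not tested.

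In proline metabolism, ALDH18A1 makes the pyrroline intermediate from glutamate, PYCR1 reduces it to proline in mitochondria, and PRODH takes the first step back, oxidising proline. The gene of the breakdown enzyme had the largest difference of the 3 after either removal, and whether the genes differ from each other was not tested. PRODH gave 569.2 in complete medium, 1330 without leucine and 1168 without lysine. Both deprived arrays were above complete medium, 2.34-fold (1.22) and 2.05-fold (1.04), and the lysine value lay just past the 2-fold line. PRODH was read by 1 probe set. Its neighbour copy PRODHLP, a pseudogene, had 2 probe sets, each above the floor on 1 array only, at 67.9 without leucine and at 115.3 without lysine.

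PYCR1 gave 826.2, 930.3 and 1211 in complete, leucine-free and lysine-free medium. The lysine-deprived array was the high one: it stood 1.47-fold (0.55) above complete medium, against 1.13-fold (0.17) without leucine. Both differences, and that of -0.38 between the deprived arrays, were within the SD between probe sets. The difference after lysine removal was past the smaller SD of 0.48 for genes at or above the median level, which include PYCR1. ALDH18A1 was read by 2 probe sets. The brighter gave 4239, 3850 and 3255, with differences of -0.14 and -0.38, and the other gave 1591, 1621 and 1413, with differences of 0.03 and -0.17. Both were lowest without lysine, and their differences after leucine removal had opposite signs and were small.

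GOT1, the cytosolic aspartate aminotransferase, exchanges the amino group between glutamate and aspartate. Its probe set gave 1412 in complete medium, 2134 without leucine and 1683 without lysine. The leucine-deprived array was the high one, 1.51-fold (0.60) above complete medium and past the SD between probe sets. The lysine-deprived array was 1.19-fold (0.25) higher, within that SD. The difference between the deprived arrays was 0.34, also within the SD, so GOT1 is not shown to differ between the removals.

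GLUL, glutamine synthetase, joins ammonia to glutamate. It was the member with the most probe sets, and each was highest in complete medium. The brightest gave 8231, 7625 and 6775 in complete, leucine-free and lysine-free medium. Another gave 936.5, 770.6 and 607.5, and the third gave 863.9, 765.2 and 673.9. All 3 kept the same order of arrays, with complete medium highest and lysine-free lowest. Their mean difference was -0.19 ± 0.09 after leucine removal and -0.42 ± 0.18 after lysine removal (SD over 3 probe sets of the same arrays, which are not replicates). Compared with the SD between probe sets of all genes, the brightest GLUL probe set differed by less, -0.11 and -0.28. The probe set with the lowest signal without lysine among these 3 differed by -0.28 and -0.62, the latter past the SD of 0.57. The other GLUL probe set was dim, at 75.7 in complete medium and below the floor on both deprived arrays, with bounds of -0.42 and -0.28. RefSeq names 6 GLUL pseudogenes, and the 3 bright probe sets are of the _s_at type.

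Across the same arrays a measure of RNA ends also moved. The ratio of 3′ to 5′ signal of the ACTB control was 5.44 in complete medium, 7.55 without leucine and 11.2 without lysine, and that of GAPDH was 1.08, 1.23 and 1.25. The GLUL signals and the brighter ALDH18A1 probe set had the reverse of this order of arrays. The main ASNS probe set and PYCR1 had the same order, and ASS1, ASL, PRODH and GOT1 had neither. The part of RNA integrity in any member's difference was not tested.

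**Figure D2:**
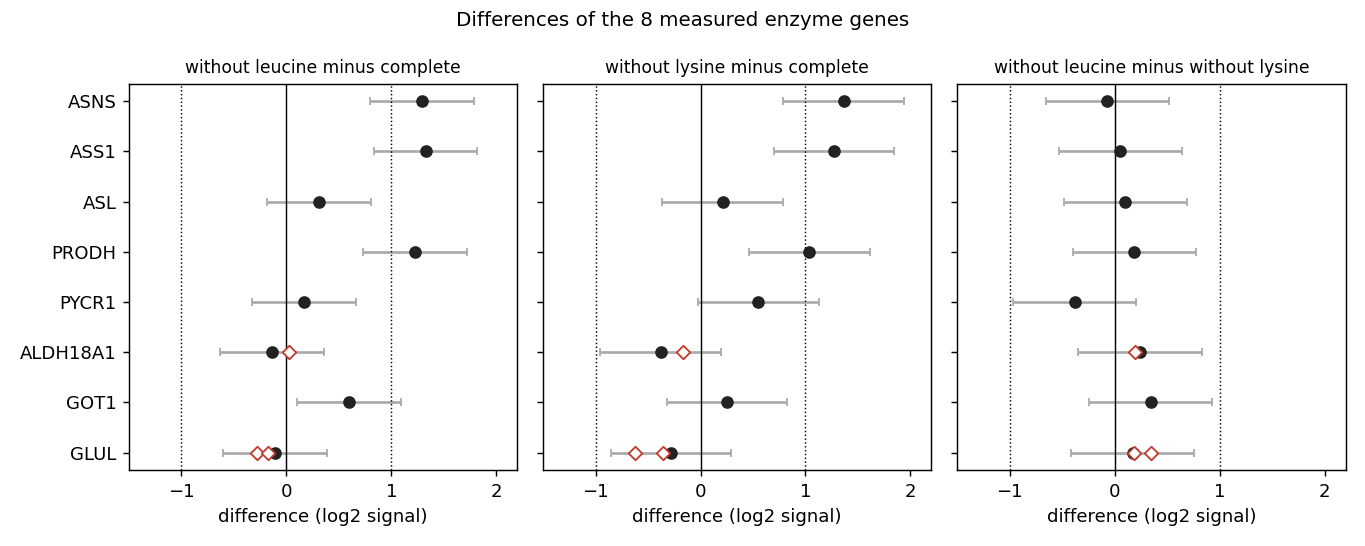
Difference in log2 signal for each of the 8 measured genes in the 3 comparisons. Black points are the brightest probe set with the SD between probe sets as bars (0.49, 0.57 and 0.59), red diamonds are the other kept probe sets of ALDH18A1 and GLUL, and dotted lines mark 2-fold. ASNS, ASS1 and PRODH lie past the 2-fold line in both comparisons with complete medium, and all 8 genes lie between -0.38 and 0.34 in the comparison of the deprived arrays.

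Counted over the set, 3 of 8 measured genes were at least 2-fold higher after leucine removal and 0 were 2-fold lower. Among all genes above the floor on both arrays, 2.66% were 2-fold higher and 1.43% were 2-fold lower. Of the 8 genes 7, all but ASL, were among the brighter ones (at or above the median level of genes that passed the filter), where the shares were 0.818% and 0.0617%. The median difference of the 8 was 0.45, beside 0.01 over all 12961 genes. By size of the difference, ASS1 ranked 119th, ASNS 125th and PRODH 150th from the top of 12297 genes, and 27th, 29th and 34th of the 6481 brighter ones.

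After lysine removal, 3 of 8 were again at least 2-fold higher and 0 were 2-fold lower. The shares over all genes were 4.22% higher and 1.95% lower, and over brighter genes 1.39% and 0.432%. The median difference of the 8 genes was 0.40, beside 0.00 over all genes. ASNS ranked 184th, ASS1 244th and PRODH 475th of 12227 genes, and 32nd, 42nd and 81st of the brighter ones. These 2 comparisons share the complete-medium array, so a low or high value there enters both.

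The comparison of the deprived arrays does not use the complete-medium array. None of the 8 genes was 2-fold apart in either direction. Over all genes 1.93% were 2-fold higher without leucine and 2.80% lower, and over brighter genes 0.108% and 0.262%. GOT1 (0.34) and ALDH18A1 (0.24) were the members highest without leucine relative to lysine, and PYCR1 (-0.38) the lowest. The median was 0.14, beside 0.02 over all genes, and no member exceeded the SD of 0.59.

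**Figure D3:**
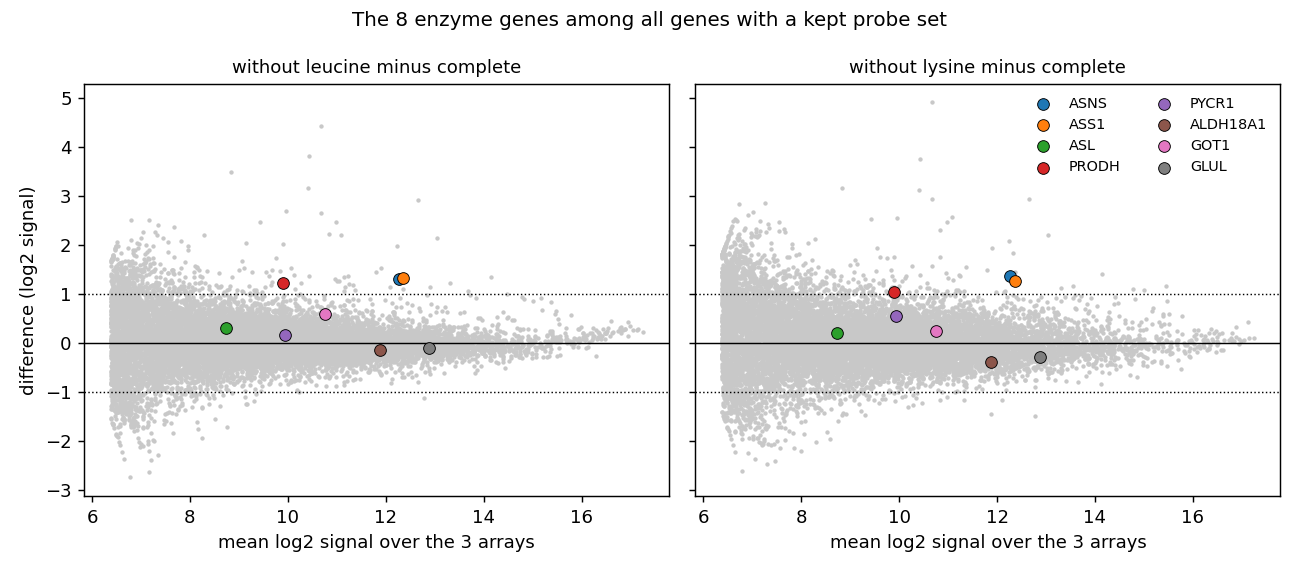
Difference in log2 signal against the mean log2 signal over the 3 arrays, for leucine removal (left) and lysine removal (right). Grey points are the 12961 genes with a kept probe set, coloured points the 8 enzyme genes, and dotted lines 2-fold. Genes with weak signal spread widely, while ASNS and ASS1 lie at a level where few genes pass 2-fold.

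The other genes of these pathways, form a list of 50 enzymes and carriers. In all, 39 had a probe set that passed the filter, and 36 were above the floor on both arrays in each comparison with complete medium. After leucine removal 1 of the 36 was at least 2-fold higher and 0 were lower, against 2.66% and 1.43% of all genes. After lysine removal 3 were higher and 0 lower, against 4.22% and 1.95%, and counts this small are not read as a result about the list. The median difference was -0.14 after leucine and -0.19 after lysine removal, with 28 and 27 of 39 below 0. Over all genes the medians were 0.01 and 0.00, with 48.3% and 49.5% of genes below 0. NAGS, which makes the activator of the urea cycle's entry enzyme, was the 1 gene past 2-fold after leucine removal, with signals of 83.5, 180.2 and 315.3 in complete, leucine-free and lysine-free medium (1.11 and 1.92). ARG1, the liver-type arginase, gave 97.7, 158.8 and 202.6 (0.70 and 1.05), and NOS1, the neuronal nitric oxide synthase, gave 67.2, 27.6 (below the floor) and 158.9, a difference of 1.24 after lysine removal. All 3 were dim and rest on 1 kept probe set each. A further 4 genes passed 2-fold only as bounds, with 1 array at the floor: AGXT higher after both removals (1.68 and 1.23), GAD2 lower after leucine removal (-1.67), and PYCR3 (-1.02) and PRODH2 (-1.75) lower after lysine removal. These values are from the brightest probe sets. A dimmer kept probe set passed 2-fold for PPAT (-1.25) and SLC25A15 (1.13) after leucine removal, and for DDAH2 (-1.16) after lysine removal. Between the deprived arrays, 1 of 35 genes above the floor was 2-fold lower without leucine, GPT (-1.43), and 0 were higher. Over all genes the shares were 2.80% and 1.93%. NOS1 (-1.49) and GAD2 (-1.24) were 2-fold lower only as bounds. A dimmer kept probe set was 2-fold higher for ALDH4A1 (1.36) and SLC25A15 (1.30).

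Among partners of the members, GOT2, OAT, ALDH4A1 and GLUD1 differed from complete medium by less than the SD between probe sets, by their brightest probe set. GPT, named like the unmeasured GPT2, differed by more, on 1 dim kept probe set. It gave 167.7, 102.0 and 275.5, with differences of -0.72 and 0.72 in opposite directions. GOT2, the mitochondrial counterpart of GOT1, gave 4860, 4275 and 3544, with differences of -0.18 and -0.46. It was lower on both deprived arrays, where GOT1 was higher. OAT, which links ornithine to the pyrroline intermediate, differed by -0.13 and 0.08, and ALDH4A1, which completes proline breakdown after PRODH, by -0.27 and -0.30. The other ALDH4A1 probe set differed by 0.58 after leucine and -0.78 after lysine removal, each past that SD and in opposite directions. GLUD1, glutamate dehydrogenase, differed by -0.17 and -0.04.

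Group values use the brightest kept probe set of each gene, and other kept probe sets of some genes had the opposite sign. By group, the 9 kept arginine and urea cycle genes had medians of 0.14 after leucine and -0.05 after lysine removal, with 4 and 5 below 0. The 5 kept glutamine, glutamate and alanine genes had medians of -0.61 and -0.04, with 4 and 3 below 0, and most of them were dim. Only 3 and 4 of the 5 were above the floor on both arrays, and the others enter as bounds. After leucine removal another kept probe set was above 0 for GAD1 (0.08) and for GLUD1 (0.13). By brightest probe set, the 3 kept asparagine and aspartate genes (GOT2, ASRGL1 and NIT2) were below 0 in both comparisons with complete medium. Their medians were -0.18 and -0.33. The other kept ASRGL1 probe set was above 0 in both, at 0.11 and 0.33. Of the 7 kept proline genes 7 and 6 were below 0, with medians of -0.27 and -0.36. PRODH2, the hydroxyproline oxidising relative of PRODH, was the lowest of them, at 210.1, 120.1 and 53.7, the last below the floor (-0.81, and a bound of -1.75). The 8 glutamine amidotransferase genes, whose enzymes take nitrogen from glutamine as ASNS does, had medians of 0.01 and -0.12. CAD, which starts pyrimidine synthesis, was the lowest of these after leucine removal, at -0.56. The 7 shuttle and mitochondrial carrier genes had medians of -0.08 and -0.17, with 6 and 5 below 0.

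**Figure D4:**
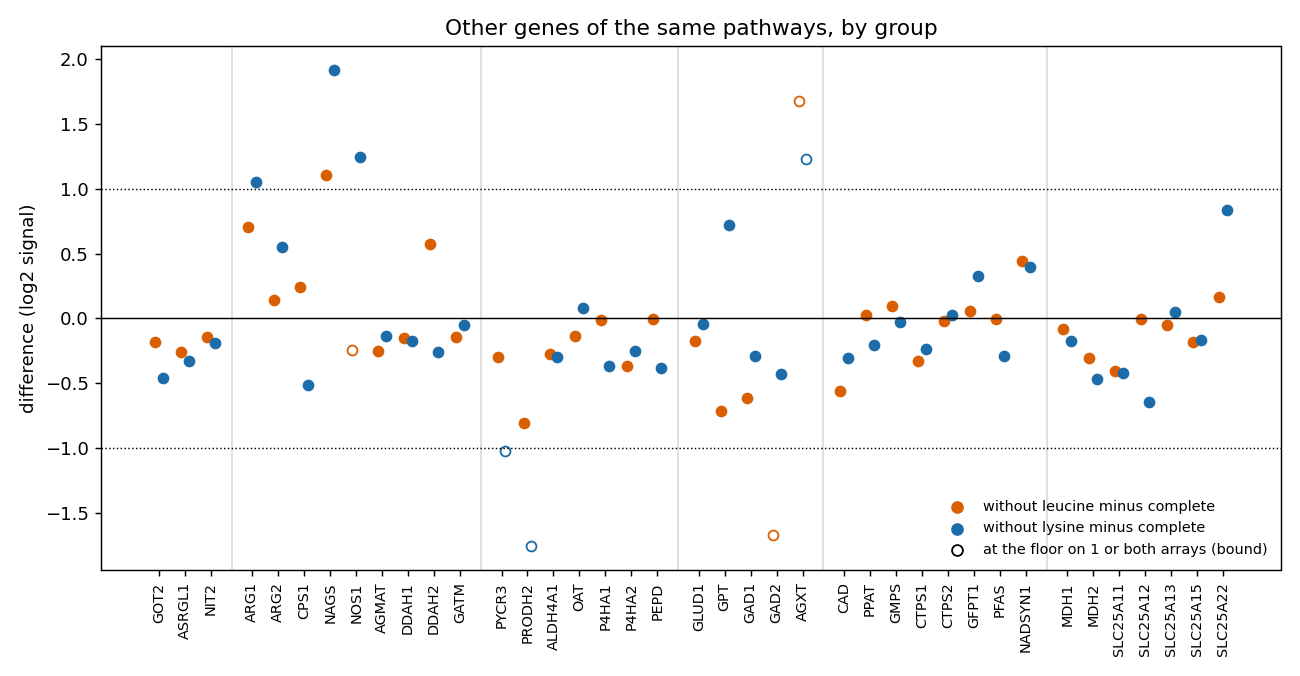
Difference in log2 signal after leucine removal (orange) and lysine removal (blue) for the 39 other pathway genes with a kept probe set, in the order asparagine and aspartate, arginine and urea cycle, proline, glutamine and glutamate, amidotransferases, and shuttle and carriers. Open points are at the floor on 1 or both arrays and are bounds. Filled points past the upper dotted 2-fold line are NAGS, ARG1 and NOS1.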

How the data were processed

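The authors deposited linear signal intensity for each probe set, computed with MAS5 per the submitters' processing notes. Its version is not given in the sources used here. Each array had a 2% trimmed mean of 500.1, so total mRNA differences are removed. Genes were named from the platform annotation, where 41091 of 54613 non-control probe sets name 1 gene. Values below the 40th percentile of an array (54.6, 56.7 and 62.4 for complete, leucine-free and lysine-free medium) were set to it and taken to log2. Probe sets with a mean at or above the median were kept (23055), and the brightest kept one stood for its gene. A 2-fold difference was counted where both arrays were above the floor. Genes named were the members, pathway genes past 2-fold, listed partners, and the 5 most like ASNS; others were named after their values were seen. Members and lists were chosen with earlier results of these data known. The calculations were tested on simulated arrays. Their noise was below the SD between probe sets, and the planted changes were larger than that of any member. That test checks the calculation and does not show how well differences of the size reported here are found. Alternatives changed the scaling, floor, filter, probe set choice and threshold. The number of arrays limits the precision. Python 3.11.15, numpy 2.4.6, pandas 2.3.3 and matplotlib 3.10.9 were used.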

Additional observations from a re-analysis of the deposited data

How the results depend on the processing

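Of 93 counts and medians under the alternatives 89 stayed within 1.5 times the count, or within the SD between probe sets of the median, and so did all 201 differences of single genes, none of which took the opposite sign. This says little: 4 of the 6 counts were 0 under every setting (44 of the 93), and all 132 values with another floor or level filter were identical to those reported, because the members are bright. The exceptions were the counts of 2-fold higher genes. Without probe sets named _s_at or _x_at only ASL, ALDH18A1 and GOT1 were left, and the count was 0 of 3 after either removal, since ASNS, ASS1 and PRODH are read only by _s_at probe sets among those kept. With a 3-fold threshold it was 0 after either removal. PRODH after lysine removal was 0.997 with log2(value + 32) and no floor, which leaves 2 genes past 2-fold there. Median centring and quantile normalization left 3 genes past 2-fold after either removal. The median over all genes moved by over 0.1 with no level filter (0.19 for lysine removal, where the members' median was 0.40) and with a 60th percentile floor (0.14). Between the deprived arrays it turned from 0.02 to -0.12 and -0.11 under the same settings, while the members' median was 0.14 under each. No paired analysis was possible because each group has 1 array.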
